A study of Mus musculus with 8 samples.

Results

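The collagen genes are the 44 protein-coding genes of the mouse whose symbol is Col, a type number, the letter a and a chain number, out of 48831 genes in the count files. They were chosen by name alone, through GENCODE M21 symbols, and sorted into 8 fibrillar, 7 cartilage, 10 basement membrane and 19 other collagens. They were followed in 8 libraries of vomeronasal epithelium, the lining of the pheromone-sensing organ of the nose, from 8-week-old C57BL/6J mice. Male and female tissue was each given as 2 libraries labelled non-flushed, each a pool of 2 mice, and 2 libraries labelled flushed, each from 1 mouse. The strain and age were the same in all 4 groups, and the labels name no transgene or drug. The protocol text attached to all 8 libraries describes flushing of blood with heparin, which differs from the descriptions of the pools. Preparation, the number of mice in a library and the sequencing lane and run named in the file headers changed together, so the term flushed below stands for all of these, and they cannot be told apart.

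Collagens are secreted proteins built of chains wound around each other. Fibrillar collagens (types I, III and V) form the cords of bone, dermis and connective tissue, type II with types IX and XI forms the fibrils of cartilage, and type IV forms the sheet under epithelia, vessels and glia. In the vomeronasal organ the sensory epithelium lies against a basement membrane, a vascular lamina propria and a capsule of bone and cartilage, so a whole-tissue library can hold RNA of all these compartments. Fewer cells of a type and less RNA per cell cannot be told apart in such libraries.

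Promoter sequence is shown for 4 genes that stand for the patterns described below, taken from RefSeq on GRCm38.p6, each reaching from 250 bases before the gene's RefSeq start to 50 bases after it and written 5′ to 3′ on the gene's own strand. Windows were matched for 35 of the 44 genes, and Col1a1, Col2a1 and Col4a3 were among those without one. Col1a2 (chr6:4505368-4505667, plus strand, 61.0% G and C), the second chain of type I collagen, stands for the abundant fibrillar genes, and its capitals mark CCAAT or the reverse complement ATTGG. Col10a1 (chr10:34389731-34390030, plus strand, 44.3% G and C), the collagen of hypertrophic cartilage cells, stands for the genes that varied most among libraries, and its capitals mark TATAAA, beginning 32 bases before the start. Col4a1 (chr8:11312777-11313076, minus strand, 74.0% G and C) and Col4a4 (chr1:82586800-82587099, minus strand, 63.3% G and C) show the shared start regions of 2 type IV pairs, and their capitals mark the stretch from the first base of the gene to the first base of its partner on the other strand, 22 bases for Col4a1 and Col4a2 and 73 bases for Col4a4 and Col4a3.
Col1a2: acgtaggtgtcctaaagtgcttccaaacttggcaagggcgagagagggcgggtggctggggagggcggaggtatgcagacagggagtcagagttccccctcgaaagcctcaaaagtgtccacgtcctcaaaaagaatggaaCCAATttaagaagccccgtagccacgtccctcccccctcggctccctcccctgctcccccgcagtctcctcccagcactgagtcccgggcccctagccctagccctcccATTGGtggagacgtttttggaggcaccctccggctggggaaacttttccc
Col10a1: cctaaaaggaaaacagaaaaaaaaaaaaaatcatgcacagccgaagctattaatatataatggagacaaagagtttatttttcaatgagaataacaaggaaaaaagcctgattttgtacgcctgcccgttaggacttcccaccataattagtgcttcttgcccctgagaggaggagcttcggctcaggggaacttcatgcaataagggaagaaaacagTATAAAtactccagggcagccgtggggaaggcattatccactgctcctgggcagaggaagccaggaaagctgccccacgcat
Col4a1: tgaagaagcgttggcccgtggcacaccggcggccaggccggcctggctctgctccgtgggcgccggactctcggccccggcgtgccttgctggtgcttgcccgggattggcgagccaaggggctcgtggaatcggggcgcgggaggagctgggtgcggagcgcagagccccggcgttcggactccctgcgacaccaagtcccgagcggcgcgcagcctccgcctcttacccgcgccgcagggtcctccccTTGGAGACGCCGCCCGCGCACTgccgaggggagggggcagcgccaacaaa
Col4a4: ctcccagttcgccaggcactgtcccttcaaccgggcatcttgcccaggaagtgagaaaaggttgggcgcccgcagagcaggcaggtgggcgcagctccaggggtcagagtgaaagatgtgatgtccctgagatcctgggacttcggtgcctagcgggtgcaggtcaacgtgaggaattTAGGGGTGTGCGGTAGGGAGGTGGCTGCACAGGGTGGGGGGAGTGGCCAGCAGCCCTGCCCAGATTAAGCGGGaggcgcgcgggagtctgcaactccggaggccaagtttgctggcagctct

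Searched on both strands, CCAAT was in 13 of 38 collagen windows, or 34.2%, against 37.4% of all 32851 windows. TATAAA was in 5 collagen windows, those of Col3a1, Col10a1, Col11a2, Col13a1 and Col17a1, or 13.2% against 13.6%. GGGCGG was in 23 collagen windows, or 60.5% against 35.7%. These are counts of letters in windows, and some genes have more than 1 window. None of these 3 motifs contains another.

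Total counts were 18763557 to 24965088 per library. Collagen genes took 4.31 to 5.03% of all counts in the pools and 2.10 to 2.73% in the flushed libraries, and these ranges did not overlap. Replicates of a group differed by more than counting noise, with a chi-square per degree of freedom of 9.74 to 29.9 between the pair, so none was a copy of another, and the Y-linked genes matched the labelled sex in all 8 libraries. Of 7 listed genes of vomeronasal neurons, Omp, the olfactory marker protein, lay at 341 to 484 CPM. Trpc2, the ion channel of these neurons, was listed at 0 in all 8 libraries, so these values do not settle the labelled tissue. The annotation of Trpc2 overlaps another gene on the same strand, and reads over more than 1 gene were not counted. CPM (counts relative to library size) is scaled here with edgeR's TMM factors, and RPKM is that level per kilobase of annotated exon, the scale on which genes are compared with each other.

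Flushed libraries held less collagen RNA than the pools. Of 44 collagen genes, 31 fell and none rose in edgeR's quasi-likelihood test with Benjamini-Hochberg adjustment over 20601 genes, where 22.9% of all genes were lower and 22.6% higher. The counts for classes and lists below are to be read against these shares. The median log2 difference, flushed minus pools, was -0.65 over the collagen genes and -0.02 over all genes tested. In 28 collagen genes every flushed library lay below every pool, as did 20.4% of all genes, and 13 fell by more than 2-fold, as did 2.08% of all genes. This direction depends on the scale: with library sizes taken over the collagen genes themselves, which sets their sum equal, 12 collagen genes were lower and 19 higher, while all genes shifted by a median of 0.72 on the log2 scale, with 1.05% lower and 80.7% higher. All 44 passed the filter on low counts, with the lowest count of a member in a library at 25. Of the 13 genes that were not called, Col9a1 and Col12a1 came nearest to the threshold, with adjusted p-values of 0.055 and 0.052.

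**Figure D1:**
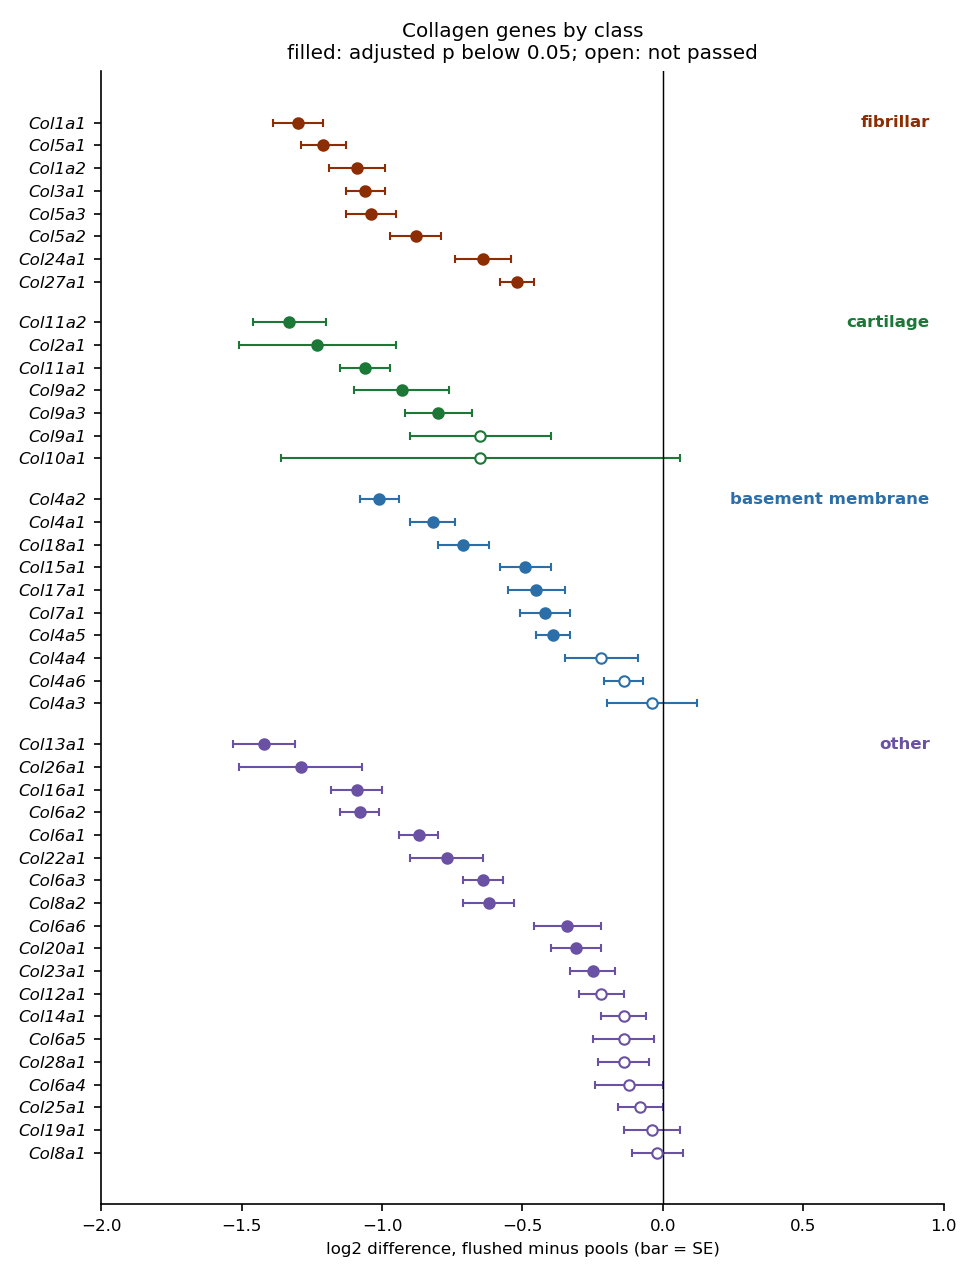
Log2 difference between 4 flushed libraries and 4 pools for each of the 44 collagen genes, ordered within class (points, edgeR estimate; bars, SE; filled, adjusted p below 0.05). All 8 fibrillar genes are filled, while the basement membrane and other classes run from below -1 to near 0.

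The fibrillar class fell as a whole: 8 of 8 genes were lower, with a median log2 difference of -1.05. Col1a1 (ENSMUSG00000001506, chr11:94936224-94953042, plus strand), the first chain of type I collagen, was the highest collagen in both preparations. It lay at 19300 and 21000 CPM in the male pools, 14900 and 14900 CPM in the female pools, 6740 and 6240 CPM in the flushed females and 8830 and 6450 CPM in the flushed males. Every pool stood above every flushed library, and the log2 difference was -1.30 ± 0.09 (SE, adjusted p = 1.7e-05), a 2.46-fold lower level. Its partner Col1a2 (ENSMUSG00000029661, chr6:4504814-4541544, plus strand), whose promoter is printed above, fell from 14300 ± 1290 to 6690 ± 1020 CPM (SD, n = 4 each), a log2 difference of -1.09 ± 0.10 (SE). Reads of Col1a1 and Col1a2 included fractions shared with other genes in 5 or more of the libraries, so part of their counts is uncertain, and the same holds for Col16a1, Col6a5 and Col6a6.

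Type III collagen, found with type I in soft connective tissue and vessel walls, followed the same order. Col3a1 (ENSMUSG00000026043, chr1:45311538-45349706, plus strand) lay at 7390 and 7250 CPM in the male pools, 5100 and 5600 CPM in the female pools, 2770 and 2640 CPM in the flushed females and 3610 and 3020 CPM in the flushed males. The groups did not overlap, and the log2 difference was -1.06 ± 0.07 (SE, adjusted p = 1.4e-05). The type V chains, which are built into type I fibrils and set their width, fell to different degrees. Col5a1 went from 1010 ± 156 to 434 ± 39.5 CPM (SD, n = 4 each) and Col5a2, which lies tail to tail with Col3a1 24.6 kb away, from 1240 ± 119 to 674 ± 72.0 CPM. Their log2 differences were -1.21 ± 0.08 and -0.88 ± 0.09 (SE). The third chain, Col5a3, fell by 1.04 on the log2 scale from a far lower level of 38.6 CPM. Col24a1 and Col27a1, fibrillar collagens known from developing bone and cartilage, fell least in the class, by 0.64 and 0.52 on the log2 scale.

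Per length, Col1a1, Col1a2 and Col3a1 were the 3 highest collagens in both preparations. Mean RPKM in the pools was 2670 for Col1a1, 1150 for Col1a2 and 646 for Col3a1, and in the flushed libraries 1080, 539 and 307. Col1a2 has 12426 bases of annotated exon against 6563 for Col1a1, so its per-length level depends on how many of those exons were in use. Together these 3 genes made up 78.2 to 81.0% of collagen CPM in the pools and 72.3 to 75.5% in the flushed libraries. After them came Col5a2, Col5a1 and Col12a1 in the pools, at 129 ± 12.4, 119 ± 18.4 and 108 ± 18.9 RPKM (SD, n = 4), values that overlap within their spread. In the flushed libraries Col12a1 stood next after Col3a1 at 92.6 ± 8.36 RPKM, above Col5a2 at 70.2 ± 7.51 and Col5a1 at 51.2 ± 4.65.

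**Figure D2:**
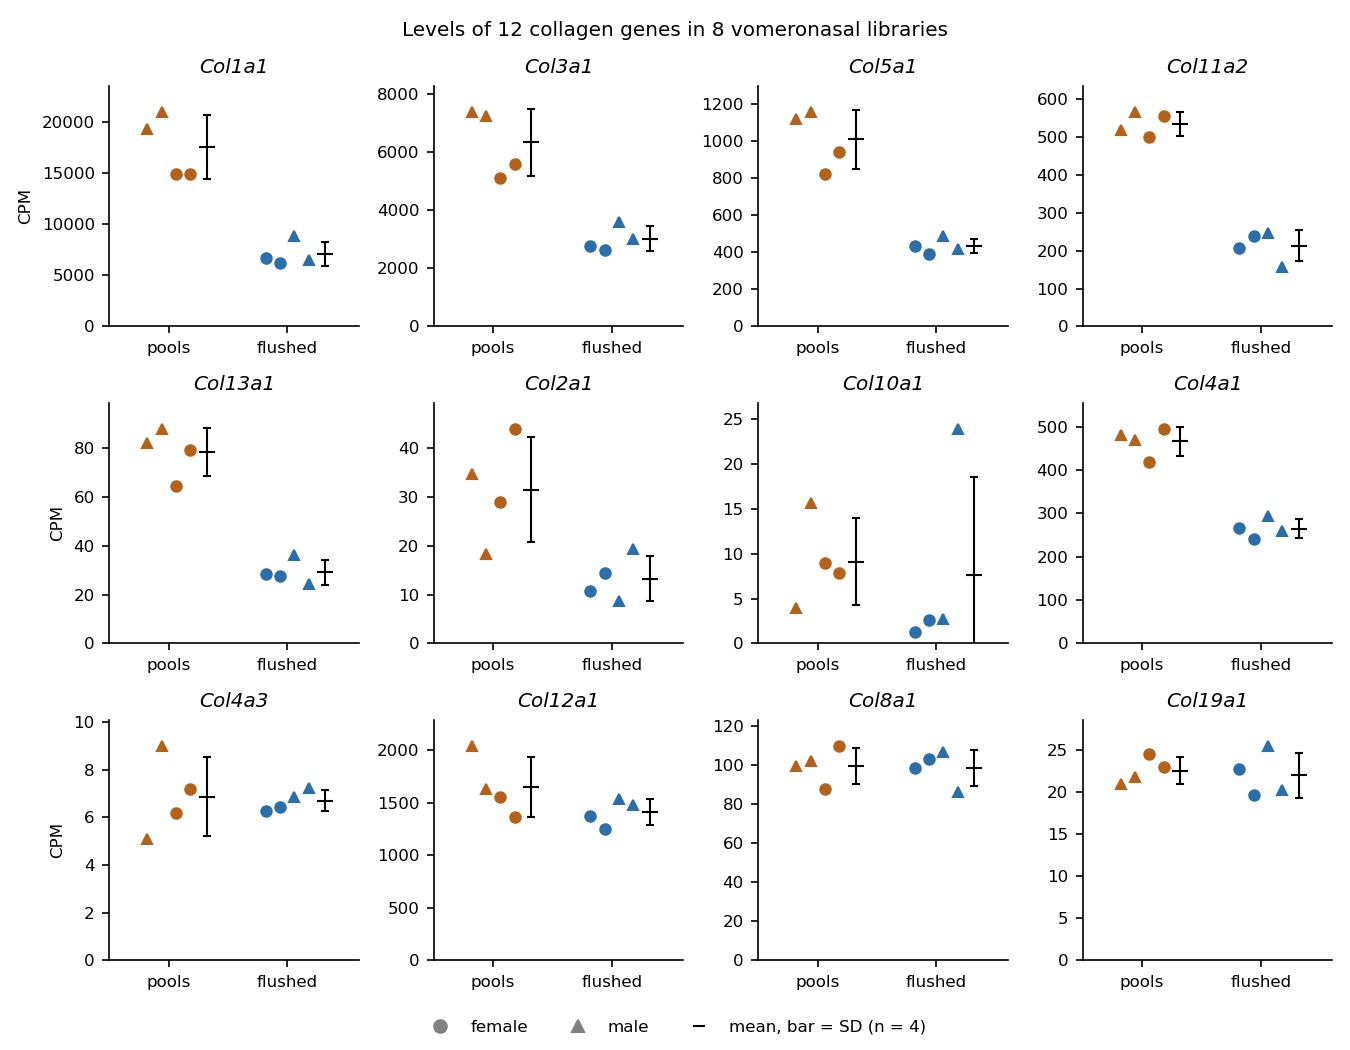
CPM of 12 collagen genes in each of the 8 libraries (circles, female; triangles, male; the bar beside each group is the mean with its SD, n = 4; axes start at 0). Col1a1, Col3a1, Col5a1, Col11a2, Col13a1 and Col4a1 separate by preparation, Col4a3, Col12a1, Col8a1 and Col19a1 overlap, and Col10a1 is set by 1 flushed male library at 23.9 CPM.

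The cartilage class held 2 patterns. Of its 7 genes, 5 fell and the median log2 difference was -0.93. The type XI chains, which nucleate cartilage fibrils and are also made by bone-forming cells, were the abundant members. Col11a2 (ENSMUSG00000024330, chr17:34039437-34066685, plus strand) lay at 519 and 567 CPM in the male pools, 500 and 556 CPM in the female pools, 207 and 240 CPM in the flushed females and 247 and 158 CPM in the flushed males. All pools were higher than all flushed libraries, with a log2 difference of -1.33 ± 0.13 (SE, adjusted p = 4.9e-05). Col11a1 fell from 406 ± 33.7 to 195 ± 22.5 CPM (SD, n = 4 each), by 1.06 on the log2 scale.

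The genes that define cartilage were low, and some of them were uneven. Col2a1 (ENSMUSG00000022483, chr15:97975602-98004695, minus strand), the main collagen of cartilage, lay at 34.8 and 18.3 CPM in the male pools, 29.0 and 44.0 CPM in the female pools, 10.8 and 14.4 CPM in the flushed females and 8.72 and 19.3 CPM in the flushed males. The preparations overlapped, as the highest flushed library stood above the lowest pool, and the log2 difference was -1.23 ± 0.28 (SE, adjusted p = 0.005). Col2a1 stood at 5.25 RPKM in the pools, against 31.9 for Col11a1 and 78.4 for Col11a2. The type IX chains, which decorate the surface of type II fibrils, were lower still. Col9a2 and Col9a3 fell by 0.93 and 0.80 on the log2 scale, each with every flushed library below every pool. Col9a1 had 2.66 to 3.68 CPM in the pools and 1.05 to 3.73 CPM in the flushed libraries, which overlapped.

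Col10a1 (ENSMUSG00000039462, chr10:34389981-34397085, plus strand) lay at 3.95 and 15.6 CPM in the male pools, 8.90 and 7.87 CPM in the female pools, 1.30 and 2.62 CPM in the flushed females and 2.77 and 23.9 CPM in the flushed males. Its highest value was in flushed male 3, and its log2 difference of -0.65 ± 0.71 (SE) did not pass, with an adjusted p of 0.48. Without that library the log2 difference was -1.97 (adjusted p = 0.0078), and that of Col9a1 was -0.99 (adjusted p = 0.0034). The same library also had the highest level of the cartilage matrix genes Matn1, at 4.14 CPM against 0.324 to 1.28 CPM elsewhere, and Ucma, at 1.48 CPM against 0 to 0.976 CPM, while aggrecan (Acan), at 38.6 CPM, stood above the other flushed libraries and within the pools. Chad and Matn3, at 5.89 and 0.99 CPM, were also highest there. Sox9 and Cnmd, at 18.8 and 9.9 CPM, were highest of the flushed libraries but within the pools. Comp and Hapln1 of that list went the other way: Comp, at 12.5 CPM, was lowest of the 8 libraries there, and Hapln1, at 9.85 CPM, lowest of the flushed libraries. Among the 17870 genes with a mean count of at least 20, the spread within groups of Col10a1 (SD of 1.25 on the log2 scale) was at the 99.8 percentile and that of Col2a1 (0.565) at the 98.7 percentile. Col9a1, Col9a2 and Col26a1 also lay above the 90th percentile, while Col11a1 lay at 56.7 and the median SD over all collagen genes was 0.145.

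Of 9 tested genes of cartilage cells, 3 were lower and 1 higher in the flushed libraries, with a median log2 difference of -0.22. Hapln1, the link protein of aggrecan, rose by 0.91 ± 0.09 (SE) on the log2 scale, and the matrix genes Comp and Acan fell by 0.62 and 0.76. The list summed to 87.0 to 113 CPM in the pools and 63.8 to 102 CPM in the flushed libraries. Its part in the cartilage collagen differences was not tested.

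Basement membrane collagens split by pair. Of 10 genes, 7 fell and the median log2 difference was -0.44. The type IV genes lie in head-to-head pairs. Col4a1 (ENSMUSG00000031502, chr8:11198423-11312826, minus strand) and Col4a2 (ENSMUSG00000031503, chr8:11312805-11449287, plus strand), the chains of nearly every basement membrane, overlap by 22 bases at their starts. Col4a1 lay at 481 and 470 CPM in the male pools, 418 and 495 CPM in the female pools, 266 and 240 CPM in the flushed females and 294 and 259 CPM in the flushed males. Its flushed libraries were all below its pools, and so were those of Col4a2, with log2 differences of -0.82 ± 0.08 and -1.01 ± 0.07 (SE, adjusted p = 4.1e-05 and 2.0e-05).

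The other type IV pairs moved less. Col4a4 and Col4a3, the chains of the kidney filter and some other specialised membranes, are separated by 71 bases at chr1:82586849-82586921 and were among the lowest collagens, at 0.494 and 0.690 RPKM in the pools. Col4a3 lay at 5.08 and 9.01 CPM in the male pools, 6.20 and 7.21 CPM in the female pools, 6.27 and 6.42 CPM in the flushed females and 6.86 and 7.24 CPM in the flushed males. Its preparations overlapped, and its log2 difference was -0.04 ± 0.16 (SE, adjusted p = 0.87). Col4a4, at -0.22 ± 0.13 (SE), did not pass either (adjusted p = 0.18). On the X chromosome, Col4a5 and Col4a6, with starts 1309 bases apart, gave -0.39 ± 0.06 (SE, adjusted p = 0.00083) and -0.14 ± 0.07 (SE, adjusted p = 0.12). Of the 3 pairs, both genes of the first were called lower, neither of the second, and 1 of the third.

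Collagens beside the basement membrane were between these. Col15a1 and Col18a1, which carry heparan or chondroitin sulfate chains in vessel and epithelial membranes, fell by 0.49 and 0.71 on the log2 scale. Col17a1, of the hemidesmosome of basal epithelial cells, and Col7a1, of the anchoring fibrils below it, fell by 0.45 and 0.42. Col7a1 lay at 61.7 to 92.4 CPM in the pools and 53.0 to 67.0 CPM in the flushed libraries, which overlapped. Of 7 genes of basal epithelium, 3 were lower and 1 higher, with Krt5 down by 1.01 and Trp63 up by 0.76 on the log2 scale, and the list summed to 1160 to 1340 CPM in the pools and 1160 to 1280 CPM in the flushed libraries. Male pool 1 carried keratins of cornified skin, with Krt10 at 60.8 CPM against at most 1.78 CPM in the other 7 libraries, and the cornified list, in which 2 of 3 tested genes were lower, summed to 2.10 to 109 CPM in the pools and 2.02 to 3.84 CPM in the flushed libraries. The part of these markers in the Col7a1 and Col17a1 differences was not tested.

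The remaining 19 collagens spanned the widest range of differences. Of these, 11 fell, 8 were not called, and the median log2 difference was -0.31. Col13a1 (ENSMUSG00000058806, chr10:61838236-61979108, minus strand), a transmembrane collagen of cell contacts and the neuromuscular junction, had the strongest difference of all 44. It lay at 82.0 and 88.0 CPM in the male pools, 64.7 and 79.4 CPM in the female pools, 28.4 and 27.5 CPM in the flushed females and 36.3 and 24.3 CPM in the flushed males, a log2 difference of -1.42 ± 0.11 (SE, adjusted p = 2.5e-05) and a 2.68-fold lower level in groups that did not overlap. Col26a1 fell by 1.29 ± 0.22 (SE) on the log2 scale from 10.1 CPM. Col16a1, a collagen that sits on fibril surfaces, fell by 1.09 and Col22a1, of tissue junctions, by 0.77.

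Type VI collagen, the beaded filament around cells, differed between its common and its rarer chains. Col6a1, Col6a2 and Col6a3, which form the common trimer, fell by 0.87, 1.08 and 0.64 on the log2 scale, each with no overlap between preparations. Col6a4, Col6a5 and Col6a6, which lie side by side on chromosome 9, had 0.819 to 1.52 RPKM in the pools against 40.1 to 91.5 RPKM for the common chains. Col6a4 and Col6a5 did not pass, at -0.12 ± 0.12 and -0.14 ± 0.11 (SE). Col6a6 passed at -0.34 ± 0.12 (SE, adjusted p = 0.042) but not when any 1 of 6 libraries was left out, where its adjusted p reached 0.15. Col23a1, a transmembrane collagen, passed at -0.25 ± 0.08 (SE, adjusted p = 0.025) but not when any 1 of 4 libraries was left out, with an adjusted p of up to 0.078.

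Several genes of this class showed small differences, among them an abundant one. Col12a1 (ENSMUSG00000032332, chr9:79598991-79718831, minus strand), which binds fibril surfaces in tendon, fascia and periosteum, lay at 2040 and 1630 CPM in the male pools, 1550 and 1360 CPM in the female pools, 1370 and 1250 CPM in the flushed females and 1530 and 1480 CPM in the flushed males. Male pool 1 was highest and the preparations overlapped, with a log2 difference of -0.22 ± 0.08 (SE). The adjusted p of 0.052 for Col12a1 fell below the threshold in DESeq2 (0.018), limma-voom (0.046) and when any 1 of 3 libraries was left out. Col14a1, its close relative, gave -0.14 ± 0.08 (SE), and Col19a1 and Col25a1, which are known from neurons among other cells, gave -0.04 ± 0.10 and -0.08 ± 0.08 (SE). Col28a1, a collagen of peripheral glia, gave -0.14 ± 0.09 (SE). Of the 7 glial genes listed, 2 were higher and 3 lower, with Cdh19 up by 1.16 and Sox10 down by 0.42 on the log2 scale, and the list summed to 85.6 to 97.8 CPM in the pools and 108 to 120 CPM in the flushed libraries.

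Col8a1 (ENSMUSG00000068196, chr16:57624258-57754737, minus strand) and Col8a2, the chains of the type VIII network of vessel walls and corneal membrane, behaved differently. Col8a1 lay at 99.6 and 102 CPM in the male pools, 87.6 and 110 CPM in the female pools, 98.4 and 103 CPM in the flushed females and 107 and 86.1 CPM in the flushed males, with a log2 difference of -0.02 ± 0.09 (SE, adjusted p = 0.88). Its preparations overlapped throughout, while Col8a2 fell from 319 ± 30.0 to 207 ± 21.7 CPM (SD, n = 4 each), by 0.62 ± 0.09 (SE) on the log2 scale. The ratio of Col8a1 to Col8a2 CPM was 0.312 to 0.314 in the 4 pools and 0.455 to 0.495 in the 4 flushed libraries.

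Ratios between chains were compared for 12 pairs, since a ratio within a library does not depend on its scaling. A two-sided exact permutation test over 4 against 4 libraries cannot go below 0.029, and after adjustment over the 12 pairs the smallest p was 0.057, so none passed. In 6 pairs the preparations did not overlap, each with an exact p of 0.029. The share of such pairs among other genes was not computed, so this count has no background beside it. Col8a1 over Col8a2 differed most, by 0.60 on the log2 scale. Col3a1 over Col1a1 went from 0.362 ± 0.0208 to 0.428 ± 0.0278, Col4a1 over Col4a2 from 1.10 ± 0.0263 to 1.26 ± 0.0576, and Col6a1 over Col6a2 from 1.20 ± 0.0579 to 1.39 ± 0.0515 (SD, n = 4 each).

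The other 2 separated pairs moved down. Col5a1 over Col5a2 went from 0.810 ± 0.0615 to 0.648 ± 0.0588, and Col4a5 over Col4a6 from 1.70 ± 0.102 to 1.44 ± 0.121 (SD, n = 4 each). The direction in these 6 pairs was the same within males and within females, which follows from the lack of overlap and adds no support. Col1a1 over Col1a2 was 1.22 ± 0.106 in the pools and 1.06 ± 0.114 in the flushed libraries (exact p = 0.11), with 1 flushed female at 0.893. Col2a1 over Col1a1 spanned 0.000871 to 0.00295 among pools and 0.000988 to 0.00299 among flushed libraries (exact p = 0.83), and the preparations overlapped.

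**Figure D3:**
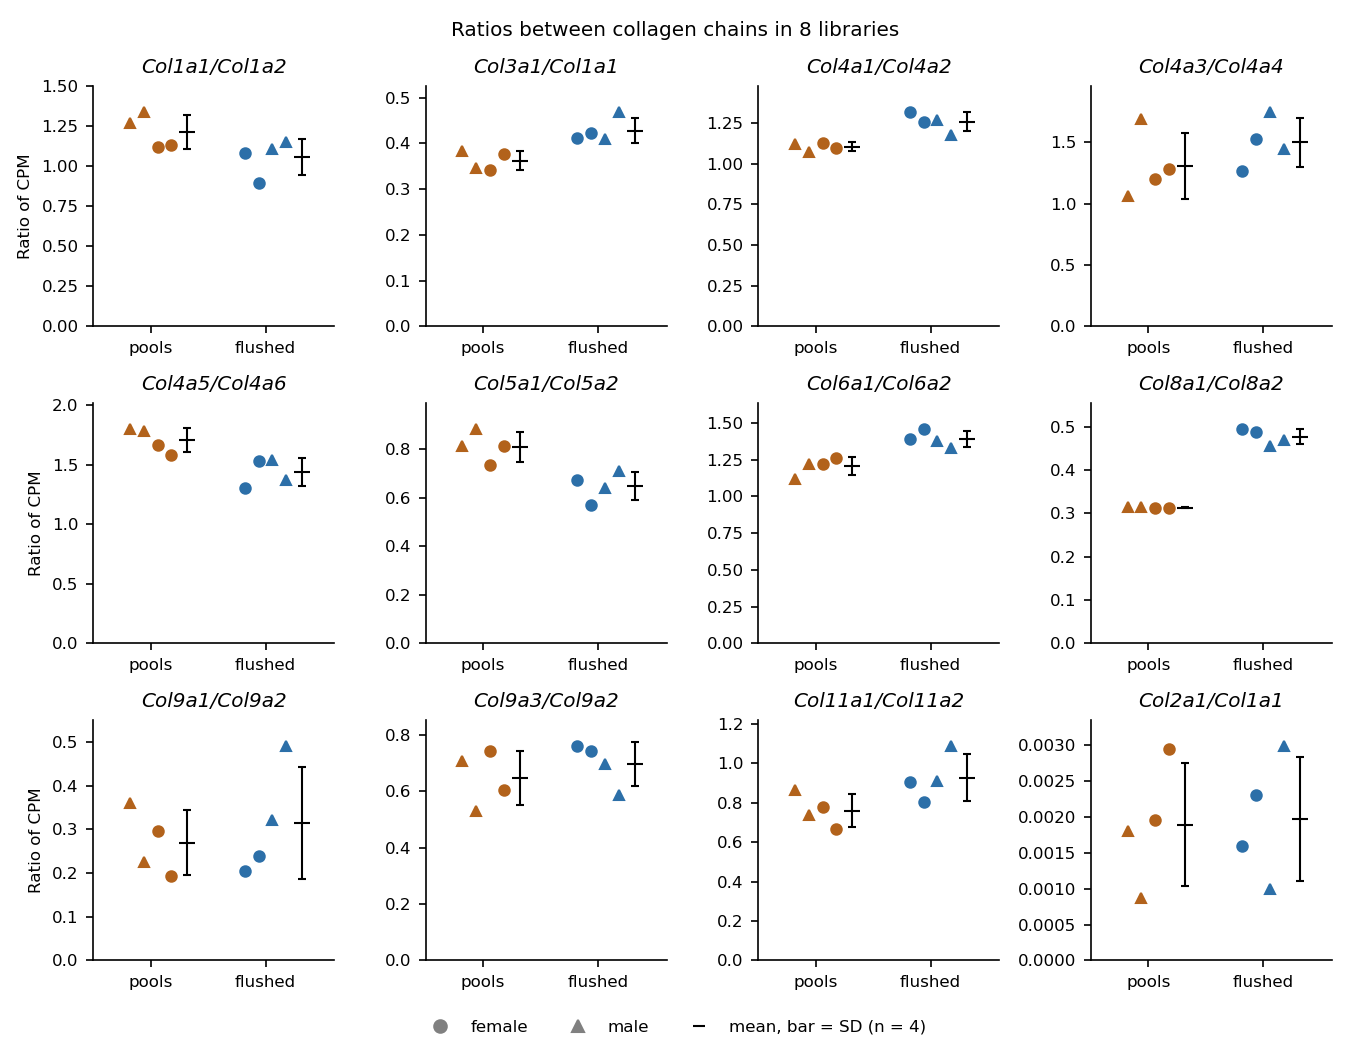
Ratio of CPM between 12 pairs of collagen chains in each library (circles, female; triangles, male; bar beside each group, mean with SD, n = 4; axes start at 0). Col8a1 over Col8a2 lies at 0.312 to 0.314 in the pools and 0.455 to 0.495 in the flushed libraries, and Col2a1 over Col1a1 overlaps.

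The make-up of the collagen RNA shifted with the preparation. Fibrillar genes made up 83.5 to 85.9% of collagen CPM in the pools and 77.7 to 80.6% in the flushed libraries. Basement membrane genes went from 3.41 ± 0.375% to 4.40 ± 0.280% and the other collagens from 10.0 ± 0.582% to 14.6 ± 0.910%, without overlap, while cartilage genes took 2.11 ± 0.205% and 1.95 ± 0.141% (SD, n = 4 each), which overlapped. These shares add to the whole, so a lower fibrillar share raises the others, and no test was made of them. Across the 44 genes, Spearman's rho between the level in the pools (RPKM) and the log2 difference was -0.49, and between exon length and the log2 difference 0.13, as a description over genes that share libraries.

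**Figure D4:**
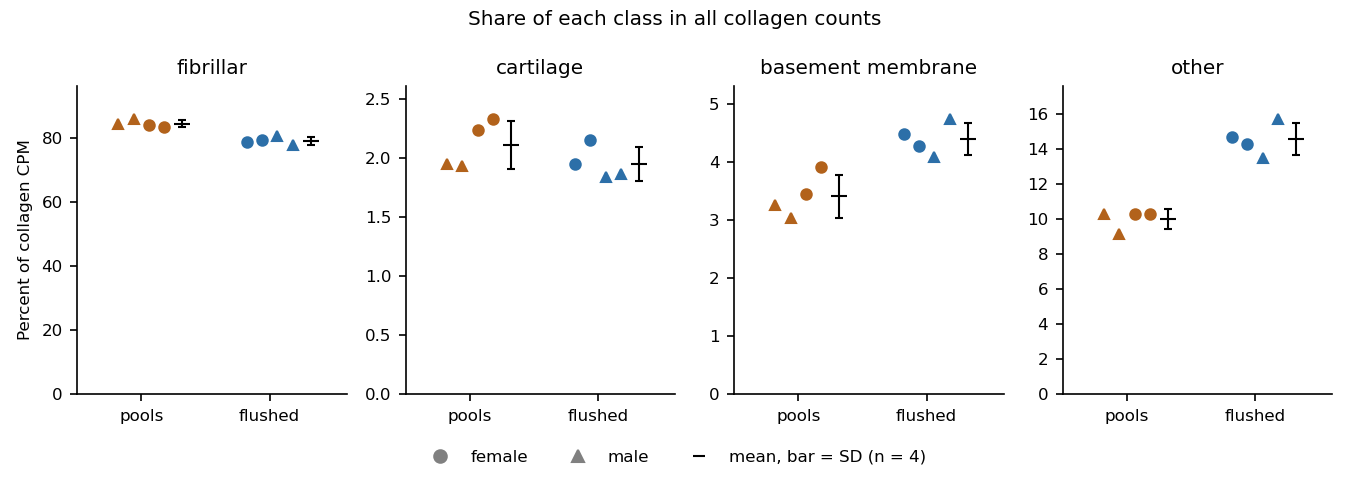
Share of each collagen class in the summed collagen CPM of each library, in percent (circles, female; triangles, male; bar beside each group, mean with SD, n = 4; axes start at 0). The fibrillar share is lower in all 4 flushed libraries, the basement membrane and other shares are higher, and the cartilage share overlaps.

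Genes that make, cut and hold collagen were compared in the same fit. Of 21 genes of collagen synthesis and folding, 15 fell and 2 rose, with a median log2 difference of -0.42. Fkbp10, a folding helper of procollagen in the endoplasmic reticulum, fell by 0.89 ± 0.08 (SE). The prolyl 3-hydroxylase P3h1 and the listed gene P3h4 fell by 0.82 and 0.67. The collagen chaperone Serpinh1 fell by 0.80. Plod2, the lysyl hydroxylase of the collagen telopeptides, rose by 0.41 ± 0.05 (SE), and Mia2, of collagen export, by 0.30. Of 12 tested genes of processing and crosslinking, 7 fell, none rose and the median was -0.65. Bmp1 and Pcolce, the protease that removes the C-terminal propeptide and its enhancer, fell by 0.72 and 0.81, and the crosslinking enzyme Loxl2 by 0.79, whereas lysyl oxidase itself (Lox) was at -0.06 ± 0.08 (SE).

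Partners of the fibril split. Of 13 tested, 7 fell and 5 rose, with a median log2 difference of -0.26. Ogn and Omd, small leucine-rich proteoglycans, rose by 1.05 ± 0.08 and 1.16 ± 0.13 (SE), and Aspn, Lum and Dcn of the same family rose by 0.55, 0.32 and 0.28. Fmod and Bgn, also of that family, fell by 0.65 and 0.52, and Sparc, a collagen-binding protein abundant in bone, fell from 2640 ± 181 to 1610 ± 207 CPM (SD, n = 4 each). Of 16 partners in the basement membrane, 10 fell and none rose, with a median of -0.19. Perlecan (Hspg2) fell by 0.55, nidogen 2 (Nid2) by 0.51 and the laminin chain Lamb1 by 0.43.

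Receptors and turnover genes were counted in the same way. Of 10 receptors, 3 fell and 3 rose, with a median of -0.19. Over all genes 22.9% were lower and 22.6% higher, so the receptor counts were near the background. The endocytic receptor Mrc2 fell by 0.63, the integrin chain Itga11 by 0.32 and the discoidin receptor Ddr1 by 0.35, while Lair1, a collagen receptor of leukocytes, rose by 0.64 and the integrin chains Itgb1 and Itga1 by 0.24 and 0.29. Of 9 turnover genes, 6 fell and 1 rose, with a median of -0.70. The metalloproteinases Mmp9, Mmp2 and Mmp14 fell by 0.79, 0.70 and 0.73, and the collagenase Mmp13 rose by 0.35 on the log2 scale.

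Markers of bone moved in the same direction as the fibrillar collagens. Of 10 bone genes, 8 fell, none rose and the median was -0.70. Dmp1, an osteocyte matrix protein, fell from 170 ± 10.9 to 50.5 ± 7.73 CPM (SD, n = 4 each), by 1.75 ± 0.10 (SE) on the log2 scale, Alpl by 0.98, Mepe by 0.78 and osteocalcin (Bglap) by 1.01. Ibsp, bone sialoprotein, was at 0.04 ± 0.09 (SE). The list summed to 1100 to 1160 CPM in the pools and 589 to 840 CPM in the flushed libraries, and its part in the collagen differences was not tested.

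Markers of other compartments were summed in the same way, beside 22.9% of all genes lower and 22.6% higher. Of 8 fibroblast genes, 2 fell and 2 rose, with a median of -0.13 and sums of 1680 to 1790 CPM in the pools and 1480 to 1740 CPM in the flushed libraries. Of 8 endothelial genes, 5 fell, with a median of -0.23, Tie1 and Egfl7 at -0.55 and -0.60, and sums of 218 to 245 and 178 to 195 CPM. Of 8 genes of smooth muscle and pericytes, 2 fell and 1 rose, with Pdgfrb at -0.50, and sums of 3370 to 3640 and 2830 to 3420 CPM. Of 6 tested genes of vomeronasal neurons, 2 fell, with a median of -0.23 and sums of 961 to 1140 and 887 to 955 CPM. Of 8 skeletal muscle genes, 1 fell, Myh4, the median was -0.80, and the list summed to 7.85 to 21.5 CPM in the pools and 3.33 to 19.4 CPM in the flushed libraries. All 7 erythroid genes fell, with a median of -2.74, and summed to 1650 to 2050 CPM in the pools and 105 to 621 CPM in the flushed libraries. The part of these markers in the collagen differences was not tested.

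**Figure D5:**
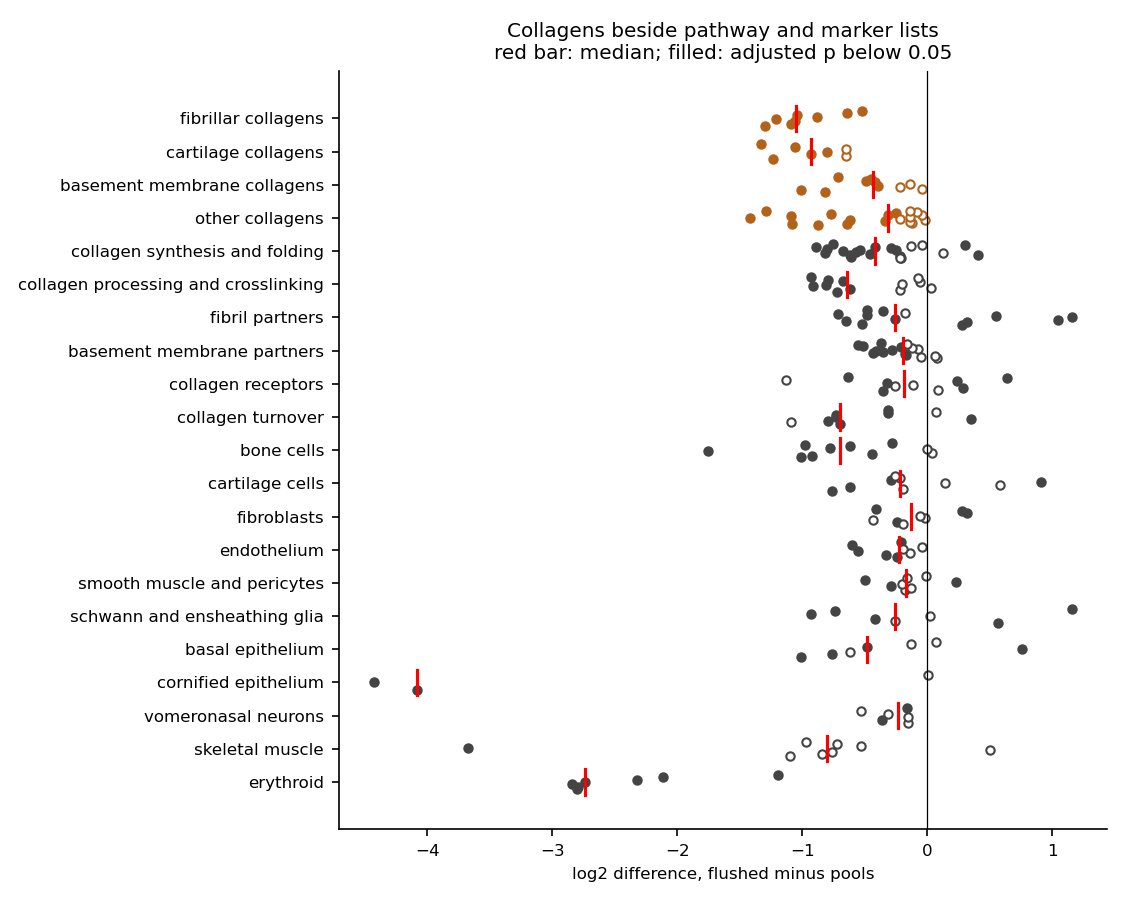
Log2 difference, flushed minus pools, of each gene in the 4 collagen classes (brown) and in 17 pathway and marker lists (grey), with the median of each list in red (filled, adjusted p below 0.05). The medians of the fibrillar and cartilage collagens are -1.05 and -0.93. Those of bone cells and collagen turnover are both -0.70, and that of processing and crosslinking is -0.65. Skeletal muscle is at -0.80, with 1 of 8 genes filled. The lowest medians are those of cornified epithelium, -4.08 over 3 tested genes, and of the erythroid list, -2.74.

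Between the sexes, no collagen gene passed in edgeR's quasi-likelihood test, against 0.116% of all genes. At an unadjusted p under 0.05 there were 12 collagen genes of 44, all 12 higher in males, against 7.96% of all genes. This count also depends on the scale. With library sizes over the collagen genes it was 5, and the median collagen log2 difference, male minus female, was 0.02 against 0.10. Marker lists also moved with sex: at the same threshold were all 7 erythroid genes (median log2 difference, male minus female, of 1.35) and 7 of 9 cartilage cell genes (median 0.56), none of which passed after adjustment. The erythroid difference was larger in the flushed libraries than in the pools. In edgeR's interaction test of sex and preparation 5 of these 7 passed (list median 2.13), against 0.0485% of all genes. The part of these lists in the collagen values was not tested. Col3a1 ranked first by p, with a log2 difference, male minus female, of 0.37 ± 0.07 (SE, adjusted p = 0.12), followed by Col6a2 at 0.32 ± 0.07 (SE, adjusted p = 0.22) and Col1a1 at 0.33 ± 0.09 (SE, adjusted p = 0.40). Col3a1 was higher in both males than in both females of each preparation, by 0.45 in the pools and 0.30 in the flushed libraries on the log2 scale. DESeq2 called 2 of the 44, Col3a1 and Col6a2, limma-voom none, and edgeR without flushed male 3 called 2, Col1a1 and Col3a1. None of the genes in the 6 pathway lists passed by sex in edgeR, and DESeq2 called 1, in synthesis and folding. Unadjusted p-values under 0.05 were found for 3 genes of synthesis and folding, 2 of processing, 3 fibril partners and 1 in each of the other lists, to be read against the same 7.96% of all genes.

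The effect of preparation was not found to differ between males and females for any collagen gene in the interaction test of edgeR, against 0.0485% of all genes, and 1 of 44 had an unadjusted p under 0.05, against 3.25% of all genes, so this count is near the background in the fit of all 8 libraries. DESeq2 and limma-voom also called 0. With no filter on low counts, edgeR gave 6 of 44 at an unadjusted p under 0.05. The share of all genes at that threshold was not computed for the fit with no filter, so the 6 have no background beside them. Leaving out 1 library leaves a single library in its group, so such fits cannot settle this count. The 1 gene in the main fit was Col25a1, at 31.8 and 32.5 CPM in the male pools, 34.1 and 35.9 CPM in the female pools, 29.7 and 28.6 CPM in the flushed females and 32.9 and 36.3 CPM in the flushed males. Flushed males were above male pools and flushed females below female pools, with an interaction of 0.37 ± 0.12 (SE, edgeR adjusted p = 1). Over all 44 collagen genes, 36 had a negative difference by preparation both within males and within females, each value from 2 against 2 libraries. In the 28 genes where every flushed library lay below every pool, this follows from that separation. The share over all genes was not computed.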

How the data were processed

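RNA of mouse vomeronasal epithelium was selected for polyA and sequenced as stranded single-end reads, per the labels' protocols. Per the submitters' processing notes, STAR 2.7.1a, featureCounts 1.6.5 and the build GRCm38 were used. What the authors deposited are expected counts: a read with several alignments adds a fraction to each gene, reads over more than 1 gene are not counted and counting is reverse stranded, per the file headers. After rounding to integers, edgeR 4.0.16 (R 4.3.3) was run on them: TMM scaling, filterByExpr on the 4 groups, and a quasi-likelihood fit of sex and preparation over all 8 libraries, with their interaction tested in a second fit. A call is an adjusted p under 0.05 over 20601 genes. The fit was tested on simulated data. The alternatives were DESeq2 1.42.0, DESeq2 size factors, limma-voom (limma 3.58.1), no low-count filter, library sizes over collagen genes, each level of the other factor, and each library left out. Chain ratios (pseudocount 0.5) used a two-sided exact permutation test (scipy 1.17.1). A sample's group came from the labels, and pools were numbered in listed order. RPKM used the union of annotated exons.

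Any collagen gene could be named, and in each pathway and marker list the 3 genes with the smallest p by preparation. Across all lists, 1 gene that this rule names is not reported here. Other list genes (Serpinh1, Plod2, Mia2, Lox, Aspn, Lum, Dcn, Fmod, Bgn, Lair1, Itgb1, Itga1, Mmp13, Bglap, Ibsp, Matn1, Ucma, Chad, Matn3, Sox9, Cnmd and Omp) were named after their values were seen. The members and lists were chosen with earlier results of these data known. Reads carried no molecular identifiers, so duplicates count as separate reads.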

Additional observations from a re-analysis of the deposited data

Results flagged for a closer look

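In each preparation the 4 libraries of each collagen gene were searched for 1 that stood apart, by its gap to the nearest of the others over the whole range of log2(CPM + 0.5); a ratio above Dixon's critical value for 4 was taken. Of 88 such groups 3 were found, where chance gives about 1 in 20.

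Col4a5 in flushed male 1 was at 77.7 CPM, against 65.8 to 66.7 CPM in the other flushed libraries (gap over range 0.919). Col26a1 in the same library was at 6.07 CPM, against 3.33 to 3.66 CPM (0.847). Col18a1 in female pool 1 was at 203 CPM, against 256 to 264 CPM in the other pools (0.878). Col25a1 was higher in both flushed males than in both male pools and lower in both flushed females than in both female pools. Its interaction of 0.37 on the log2 scale had an adjusted p of 1 in edgeR.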

How the results depend on the processing

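The count of 31 collagen genes lower in flushed libraries was 31 with DESeq2 size factors and with DESeq2. It was 33 with limma-voom and with no filter. Within females it was 28, within males 26, and with 1 library left out 29 to 32. Over all genes, 4721 were lower in the main fit, 4625 with DESeq2 size factors and 4048 with DESeq2. Limma-voom gave 4699 and no filter 4543. Within females 2601 of all genes were lower, within males 2278, and with 1 library left out 3578 to 4705. Of the 31, 29 were called in each of the 8 fits that left out 1 library. With library sizes over the collagen genes, which by construction sets their sum equal, the counts were 12 lower and 19 higher, and 25 genes changed sign, with log2 differences of Col4a3 0.70, Col4a4 0.53, Col4a5 0.35, Col4a6 0.60, Col6a3 0.10, Col6a4 0.62, Col6a5 0.60, Col6a6 0.40, Col7a1 0.33, Col8a1 0.72, Col8a2 0.12, Col9a1 0.09, Col10a1 0.11, Col12a1 0.52, Col14a1 0.60, Col15a1 0.24, Col17a1 0.29, Col18a1 0.03, Col19a1 0.70, Col20a1 0.43, Col23a1 0.49, Col24a1 0.09, Col25a1 0.66, Col27a1 0.22 and Col28a1 0.60. Col8a1 changed sign with no filter (0.01), and within females Col8a1 (0.03) and Col28a1 (0.04) did. Within males the log2 differences were Col4a3 0.00, Col6a4 0.05, Col6a5 0.02, Col10a1 0.44, Col19a1 0.10 and Col25a1 0.10. With 1 library left out, 3 uncalled genes changed sign: Col8a1 ranged from -0.10 to 0.05, Col4a3 from -0.17 to 0.15 and Col19a1 from -0.14 to 0.02, and the log2 ratio of Col2a1 to Col1a1 from -0.23 to 0.39. By sex, the count of 0 (all genes, 17 higher and 7 lower) was 8 with no filter (327 and 457), 2 with DESeq2 (88 and 35) and 0 to 2 with 1 library left out. The interaction count of 0 was 1 with no filter, Col10a1 (all genes, 118 higher and 145 lower, against 6 and 4 in the main fit). With no filter, edgeR gave far smaller adjusted p-values for some genes at similar differences. Col10a1 by preparation had 3.3e-05 at a log2 difference of -0.62, against 0.48 at -0.65 in the main edgeR fit. All counts with no filter are to be read with that limit. In the synthesis and folding list 1 gene was higher in males with DESeq2. The cause of these was not tested.

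Per exon length the basement membrane share of collagen counts was 4.12% in pools and 5.40% in flushed libraries and the cartilage share in flushed libraries 2.10%. No chain ratio was called with a pseudocount of 2, and with 1 library left out the design of 3 against 4 could not pass after adjustment. No paired analysis was possible because the replicate numbers mark no shared animal, litter or day. Depth limits Col9a1, Col10a1 and Col26a1 most, with lowest counts of 25, 31 and 77.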
